A study of Mus musculus with 6 samples.

Results

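Genes that encode secreted proteins of salivary and related glands were followed through RNA-seq of the mouse cochlea, which houses the sensory hair cells of hearing. They were Car6, Pip, Bpifa2, Smr3a, Cst10, Dcpp1, Obp2b, Amy1, Mucl2 and Bpifb2, 10 of the 48709 mouse genes in the count table. They were picked as gland proteins whose counts differed between libraries, so their counts are given here as a description and without a test. The libraries came from 3 mice homozygous for an engineered Hgf allele (KI, genotype Hgfdel10Neo/del10Neo), which lacks 10 bp of intron 5 of Hgf and carries a Neo selection cassette, and from 3 wild-type littermates (WT, genotype Hgf+/+). The mice were between 5 and 27 weeks old, and the sources used here do not tie an age to each mouse or name the strain background.

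Salivary glands release fluid and protein from acinar cells into ducts. Serous acini, which predominate in the parotid gland, secrete enzymes such as amylase together with small binding proteins, whereas mucous acini, which predominate in the sublingual gland, secrete gel-forming mucins. In the mouse submandibular gland the granular ducts add kallikreins and secretoglobins, many of them under androgen control. The parotid gland lies close to the temporal bone, which holds the cochlea and the middle ear with its mucosa. In bulk tissue, a change in the number of cells of a type and a change in RNA per cell cannot be told apart.

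The libraries held between 24005234 and 42312291 counts on mouse genes. Hgf, the targeted gene, was at 9.23, 10.4 and 10.5 CPM (counts scaled to library size) in the KI libraries, against 15.4, 16.2 and 15.2 CPM in the WT libraries. Counts on the Neo sequence were 71, 199 and 5 in the KI libraries, against 5, 8 and 10 in the WT libraries, so KI replicate 3 was at the WT level for the cassette although its label names it. Dct, a melanin pathway gene, was at 19.3, 24.3 and 23.6 CPM in the KI libraries, against 98.5, 105 and 116 CPM in the WT libraries. All 16 genes of a cochlear marker list were detected, and their summed level was 3570, 4120 and 3960 CPM in the KI libraries, against 3380, 3830 and 3600 CPM in the WT libraries. KI replicate 3 and WT replicate 2 also differed from the rest in Xist, at 757 and 853 CPM, against at most 0.904 CPM in the others, and the part of sex in the gland gene values was not tested. Because 7 of the 10 gland genes were highest in KI replicate 3, values without that library are given with the results.

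RefSeq lists a promoter for all 10 genes on build GRCm38.p6. The 60 bases before the RefSeq start site are shown for 6 genes with different library patterns, to set the sequence beside the counts that follow. Capitals mark TATAA, the core of a TATA box, searched on both strands. Pip (chr6:41847489-41847548, forward strand) and Bpifa2 (chr2:154008216-154008275, forward strand) were higher in every KI library, as was Smr3a (chr5:88002465-88002524, forward strand). Obp2b (chr2:25736947-25737006, forward strand) was high in KI replicates 2 and 3, Mucl2 (chr15:103899313-103899372, reverse strand) in KI replicate 1 alone, and Bpifb2 (chr2:153874985-153875044, forward strand) in WT replicate 3 alone.
Pip: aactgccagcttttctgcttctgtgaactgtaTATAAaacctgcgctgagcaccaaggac
Bpifa2: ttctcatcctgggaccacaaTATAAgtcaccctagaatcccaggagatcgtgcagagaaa
Smr3a: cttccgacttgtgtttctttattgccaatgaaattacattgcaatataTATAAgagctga
Obp2b: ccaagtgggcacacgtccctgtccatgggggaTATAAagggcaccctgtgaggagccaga
Mucl2: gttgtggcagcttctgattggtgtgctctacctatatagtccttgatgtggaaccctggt
Bpifb2: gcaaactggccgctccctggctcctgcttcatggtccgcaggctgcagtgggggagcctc
TATAA was found in this window for 5 of the 10 genes, namely Pip, Bpifa2, Smr3a, Dcpp1 and Obp2b, and in 7.24% of all 32851 promoters in the table. Car6, Cst10, Amy1, Mucl2 and Bpifb2 held no match. A match describes letters in the window and does not show a used site.

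Across the 10 genes, every KI library lay above every WT library for 7, namely Car6, Pip, Bpifa2, Smr3a, Cst10, Dcpp1 and Amy1. Among the 20733 genes that passed the filter on low counts, KI lay wholly above WT in 4.7% and wholly below in 4.02%. Nothing is read from the 7 against that share, because the genes were picked on these counts. The groups overlapped for Obp2b, Mucl2 and Bpifb2. The count of 7 was the same without KI replicate 3, but leaving out a library can only keep or raise it, so this is no check. Only Car6, Pip, Bpifa2 and Amy1 passed the filter; the other 6 were too sparse in too many libraries.

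**Figure D1:**
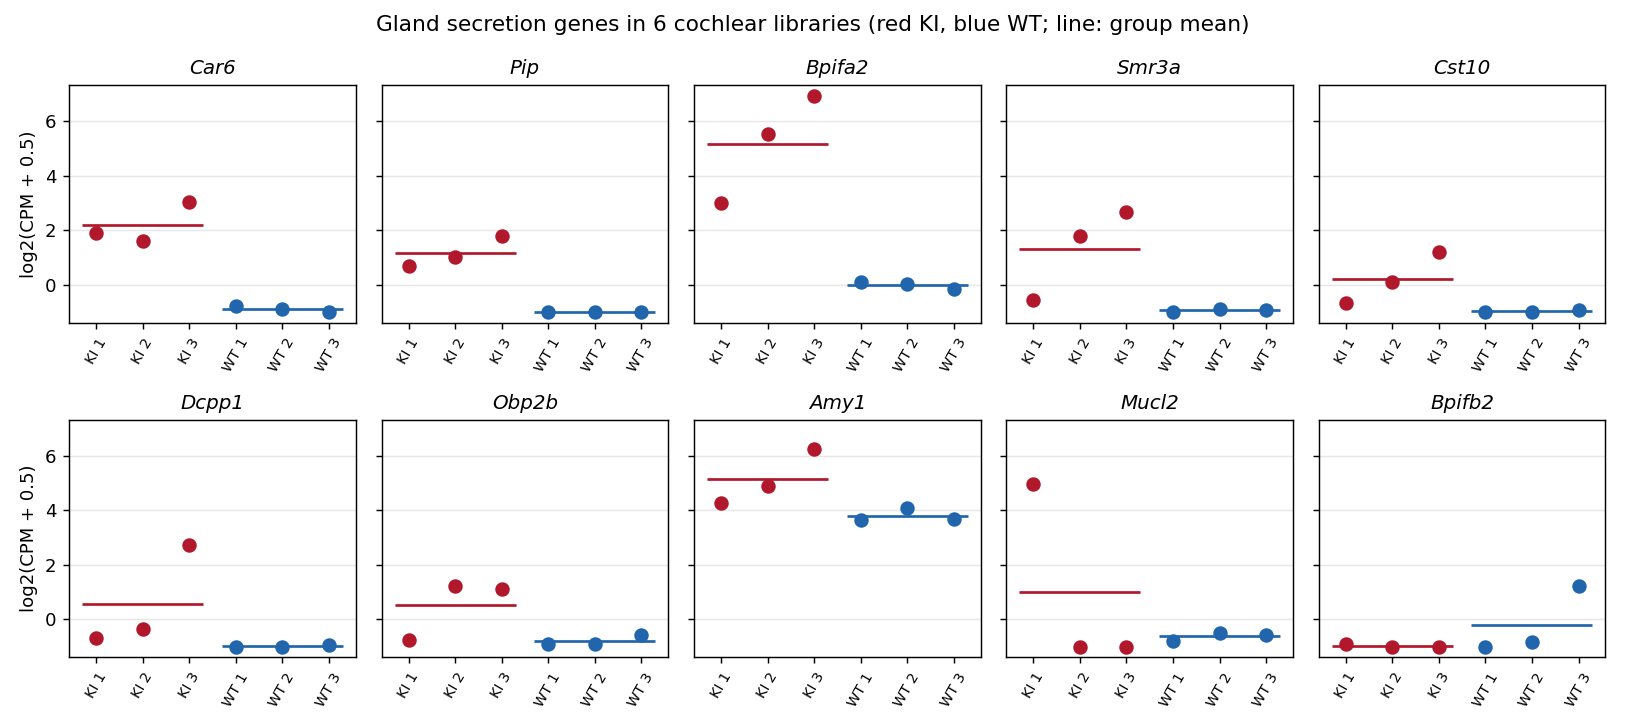
Level of each of the 10 gland genes in each library, as log2(CPM + 0.5) on the vertical axis, with KI libraries in red on the left, WT libraries in blue on the right, and a line at the mean of the plotted values of each group. KI lies above WT for 7 genes, Mucl2 stands high in KI replicate 1 alone, at 31.2 CPM, and Bpifb2 in WT replicate 3 alone, at 1.86 CPM.

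Bpifa2 encodes parotid secretory protein, a BPI-fold protein of saliva (GRCm38 chr2:154008265-154016079, forward strand, as for all positions below). It had 249, 1356 and 2811 counts in KI replicates 1, 2 and 3, against 14, 15 and 17 counts in the WT libraries. All KI libraries were above all WT libraries, but the KI libraries differed 16.2-fold among themselves. The means were 58.5 ± 58.1 CPM in KI and 0.491 ± 0.0791 CPM in WT (SD, n = 3 each). Over summed counts the KI to WT ratio was 108 (95% counting interval 81 to 148), and its log2 value was 6.76, or 5.75 without KI replicate 3. All such intervals cover counting error only.

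Car6 encodes the secreted carbonic anhydrase of saliva (chr4:150187015-150201332, reverse strand). It had 107, 74 and 178 counts in the KI libraries, against 2, 1 and 0 counts in the WT libraries. Unlike Bpifa2, its lowest KI library was replicate 2, and its KI libraries spanned only 3.06-fold. The ratio over summed counts was 135, with a 95% counting interval of 45.8 to 658. The log2 ratio of 7.08 was 6.54 without KI replicate 3, 8.23 without WT replicate 1 and 6.26 without WT replicate 3, where WT has few counts or none.

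Pip encodes prolactin-induced protein, a small secreted protein of salivary and lacrimal glands (chr6:41847535-41852065, forward strand). It had 36, 44 and 69 counts in the KI libraries, against none in any WT library. Set against a floor of 3 counts over the WT group, it was 56-fold higher in KI, a value that depends on that floor. The lower limit of the 95% counting interval was 45-fold. On the log2 scale the value against the floor was 5.81, or 5.36 without KI replicate 3. Without WT replicate 1, 2 or 3 it was 5.38, 5.28 and 4.99. WT held no count, so these lower values come from setting the same floor over a smaller WT total. Its KI libraries spanned 2.75-fold, the narrowest range of the 7 genes that were higher in all KI libraries.

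Amy1 encodes the salivary and liver form of alpha-amylase, which digests starch (chr3:113555710-113606699, reverse strand). It was the most abundant of the 10 genes by count in every WT library. Counts were 620, 867 and 1745 in the KI libraries, against 301, 489 and 521 in the WT libraries. Its groups were close at the edge, with the lowest KI library at 18.7 CPM and the highest WT library at 16.4 CPM. Means were 41.3 ± 30.2 CPM in KI and 13.7 ± 2.42 CPM in WT (SD, n = 3 each). The log2 ratio was 1.48, or 0.81 without KI replicate 3. In the mouse this gene is transcribed from separate parotid and liver promoters, and counts per gene do not separate them.

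Smr3a encodes a proline-rich secreted peptide precursor named for its androgen regulation in the submandibular gland (chr5:88002549-88008534, forward strand). It had 6, 87 and 134 counts in the KI libraries, against 0, 1 and 1 in the WT libraries. KI replicate 1 was far below the other KI libraries, with KI replicate 3 at 32.1 times its level. The KI to WT ratio over summed counts was 128 (95% counting interval 35 to 1060). Its log2 value was 7, or 6.17 without KI replicate 3.

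Cst10 encodes a secreted cystatin, a cysteine protease inhibitor, that is also known from maturing mouse cartilage (chr2:149405057-149410293, forward strand). Its counts were low throughout, at 4, 17 and 41 in the KI libraries, against 0, 0 and 1 in the WT libraries. Its KI libraries ran in the same order as for Smr3a. The summed level of a cartilage list was 654, 990 and 884 CPM in KI, against 590, 798 and 543 CPM in WT, with groups that overlapped. Within that list, Col10a1, the collagen of maturing (hypertrophic) cartilage, was at 9.95, 83.5 and 50.3 CPM in KI, against 4.14, 3.33 and 3.53 CPM in WT, so every KI library lay above every WT library. The part of cartilage in the Cst10 counts was not tested. The ratio of 69.9 rested on a single WT count (95% counting interval 12.1 to 2810). Its log2 value of 6.13 was 5.02 without KI replicate 3 and 3.72 without WT replicate 3, the library with that count. In the latter case WT had no count and was set at the floor of 3 counts, which lowers the ratio.

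Dcpp1 encodes the demilune cell and parotid protein (chr17:23880876-23882853, forward strand). It had 4, 8 and 140 counts in the KI libraries, against 0, 0 and 1 in the WT libraries. KI replicate 3 held most of its reads, at 50.3 times the level of KI replicate 1 and 22.2 times that of KI replicate 2. The log2 ratio of 7.42 was 4.21 without KI replicate 3, and 5.02 without WT replicate 3, with WT then at the floor.

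Obp2b encodes an odorant-binding lipocalin, a secreted carrier of small lipophilic molecules (chr2:25737009-25740097, forward strand). It had 3, 54 and 39 counts in the KI libraries, against 1, 1 and 7 in the WT libraries. KI replicate 1 lay below WT replicate 3, at 0.0904 against 0.167 CPM, so the groups overlapped. It was the only one of the 10 that was highest in KI replicate 2. Its log2 ratio of 3.59 was 3.29 without KI replicate 3 and 4.94 without WT replicate 3.

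Mucl2 encodes a mucin-like salivary protein (chr15:103895855-103899312, reverse strand). It had 1034, 0 and 0 counts in the KI libraries, against 2, 6 and 7 in the WT libraries. A single KI library therefore held almost all of its reads, and the other KI libraries were below all WT libraries. Its log2 ratio of 6.28 turned to -1.44 without KI replicate 1, with KI then at the floor of 3 counts.

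Bpifb2 encodes a BPI-fold protein related to Bpifa2 (chr2:153875045-153895270, forward strand). It had 1, 0 and 0 counts in the KI libraries, against 0, 2 and 78 in the WT libraries. It was the only gene of the 10 that was highest in a WT library, with WT replicate 3 high and every other library at 2 counts or fewer. The log2 ratio of -6.15 was -1.65 without WT replicate 3, with KI at 1 count and WT at 2. It was -3.86 without KI replicate 1, with KI then at the floor of 3 counts.

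In the authors' deposited table the log2 fold changes, KI over WT, were 6.9 for Bpifa2, 1.59 for Amy1, 6.1 for Mucl2 and -5.67 for Bpifb2. They were 7.08 for Car6, 7.18 for Smr3a, 6.16 for Cst10, 7.56 for Dcpp1 and 3.85 for Obp2b. For Pip the deposited value was 8.3, against 5.81 here, where WT had no count and was set at the floor of 3 counts. That table lists all 10 genes. It summarises each gene by 1 value per group comparison, and the single libraries behind Mucl2 and Bpifb2 are seen in the counts alone.

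To compare levels between genes, CPM were divided by exon length, giving values per kilobase (RPKM). In KI replicate 1, Mucl2 was highest at 29.8 RPKM, ahead of Amy1 at 5.42 and Bpifa2 at 3.74 RPKM. In KI replicate 2, Bpifa2 led at 23 RPKM, ahead of Amy1 at 8.58 and Smr3a at 4.64 RPKM. KI replicate 3 had Bpifa2 at 60.6, Amy1 at 21.9, Dcpp1 at 9.82 and Smr3a at 9.08 RPKM. The order of the most abundant genes thus differed between KI libraries. In all WT libraries Amy1 was the highest per length, at 3.51, 4.77 and 3.61 RPKM, and the next gene stayed below 1 RPKM. In WT replicate 3 that gene was Bpifb2, at 0.89 RPKM, and in the other WT libraries it was Bpifa2, at 0.28 and 0.251 RPKM.

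The 10 genes together held 2064, 2507 and 5157 counts in the KI libraries, against 320, 515 and 633 in the WT libraries. Without Amy1 they came to 43.5, 55.9 and 148 CPM in the KI libraries, against 0.763, 0.874 and 2.67 CPM in the WT libraries. KI replicates 2 and 3 had closely similar make-up. Bpifa2 took 54.1% (exact 95% interval 52.1 to 56.1) of these reads in KI replicate 2 and 54.5% (53.1 to 55.9) in KI replicate 3. Amy1 took 34.6% (32.7 to 36.5) and 33.8% (32.5 to 35.1) in the same libraries. Exceptions were Dcpp1, at 0.319% (0.138 to 0.628) in replicate 2 and 2.71% (2.29 to 3.2) in replicate 3, and Obp2b, at 2.15% (1.62 to 2.8) and 0.756% (0.538 to 1.03). The intervals on these shares cover counting error only, not variation between mice, and are no test between libraries. KI replicate 1 was of another kind, with 50.1% (47.9 to 52.3) from Mucl2 and 12.1% (10.7 to 13.5) from Bpifa2. In the WT libraries Amy1 took 94.1%, 95% and 82.3%, and Bpifb2 took 12.3% (9.86 to 15.1) in WT replicate 3.

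**Figure D2:**
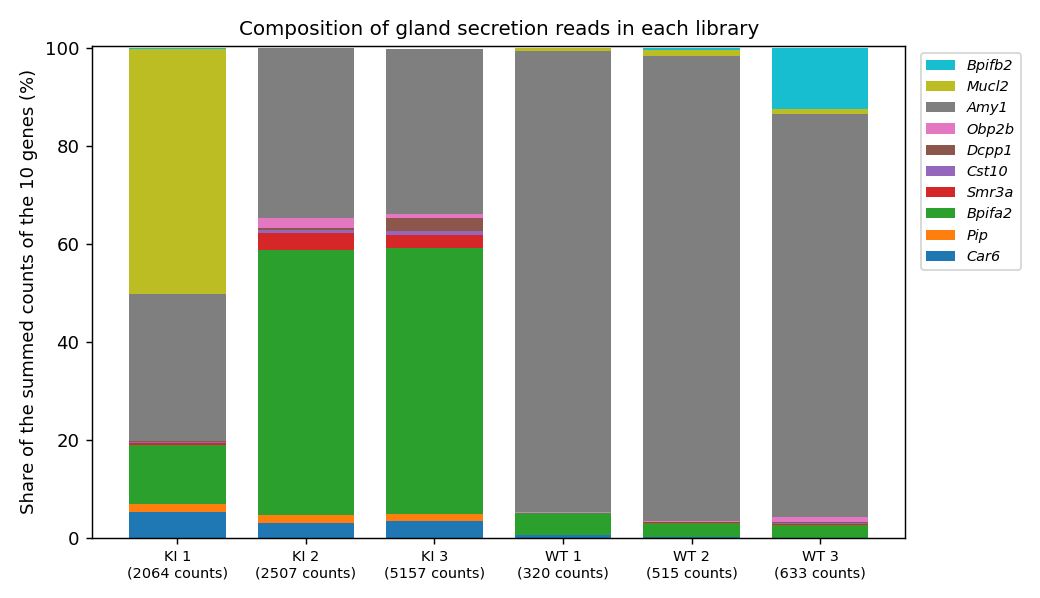
Share of the summed counts of the 10 gland genes taken by each gene, in percent, for each library, with the summed count below each bar. Bpifa2 takes 54.1% and 54.5% in KI replicates 2 and 3, Mucl2 takes 50.1% in KI replicate 1, and Amy1 takes over 82% in each WT library.

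Ratios between genes within a library showed the same split. Bpifa2 had 15.8 reads per Car6 read in KI replicate 3 (95% counting interval 13.6 to 18.5) and 18.3 in KI replicate 2 (14.5 to 23.5), but 2.33 in KI replicate 1 (1.85 to 2.95). Smr3a had 1.94 reads per Pip read in KI replicate 3 and 1.98 in KI replicate 2, but 0.167 in KI replicate 1 (0.0574 to 0.399). The ratio of Car6 to Pip was 2.97 (2.02 to 4.47), 1.68 (1.14 to 2.5) and 2.58 in KI replicates 1, 2 and 3. As a description of these libraries, Car6 and Pip kept a more even ratio over the KI libraries than either did with Bpifa2.

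Near-identical copies bear on the counts of a few genes. The sources used here do not name the program that counted reads, nor how reads matching several genes were treated. Of the 93-base windows of the Dcpp1 transcript, as long as a read, 23% also occur in Dcpp2 or Dcpp3, whose proteins are 89.5% and 87.1% identical to Dcpp1. Dcpp2 had 0, 0 and 9 counts in the KI libraries and none in the WT libraries, and Dcpp3 had 0, 0 and 16 counts in the KI libraries, against 1, 4 and 0 in the WT libraries. The whole cluster was therefore highest in KI replicate 3, and the split between its members is uncertain. For Smr3a, 41.3% of windows also occur in the gene model Gm28434, which had no count in any library. For Obp2b, 5.94% occur in Obp2a. The other 7 genes shared none.

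The pancreatic amylase genes Amy2a2, Amy2a3, Amy2a4 and Amy2a5, each 88.1% identical in protein to Amy1, had no count in any library. They share long stretches with one another, 48.3% of windows for Amy2a5; how reads shared among them were counted is not known. In a list of 19 genes of the exocrine pancreas, Prss1, Try4, Try5 and Clps also had no count in any library, Cpa1 had 0, 1 and 0 in KI and 1, 0 and 0 in WT, and Pnlip 2 or fewer counts in each. The most abundant genes of that list were Rnase1, at 31.3, 33.8 and 32.6 CPM in KI and 25.3, 34.5 and 26.5 CPM in WT, Cela1 and Ctrl. None of its 5 tested genes passed the test.

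Other genes of the same biology were taken from 7 lists, covering salivary secreted proteins, acinar machinery, gland ducts and myoepithelium, lacrimal and sebaceous glands, airway-type secretion, exocrine pancreas and paralogs of the 10 genes. Of 154 such genes in the table, 83 passed the filter, and none passed edgeR's quasi-likelihood test after Benjamini-Hochberg adjustment over all genes, where 0.0338% of all genes tested did. At an unadjusted p under 0.05 there were 6, against 4.5% of all genes tested. With 1 library left out, that number was 12 of 88 without KI replicate 1, 11 of 86 without KI replicate 2 and 6 of 86 without KI replicate 3. It was 12 of 89 without WT replicate 1, 15 of 88 without WT replicate 2 and 5 of 87 without WT replicate 3. The share over all genes at this threshold was computed for all 6 libraries only, so nothing is read from these shifts. DESeq2 also called none of the 83. KI lay wholly above WT for 2 of the 83 (2.41%, against 4.7% of all genes) and wholly below for 5 (6.02%, against 4.02%). Their median log2 fold change was 0.02, against 0 over all genes. The rest had too few counts for the test.

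No acinar machinery gene passed the test. Of 15 tested, 5 had a positive log2 fold change, with a median of -0.1. The most abundant were Slc12a2, the sodium-potassium-chloride cotransporter that the cochlea also uses, at 346 ± 38 CPM in KI and 348 ± 33.3 CPM in WT, Xbp1, a transcription factor of secretory cells, and Vamp8, a protein of granule release. Aqp5, the water channel of serous acini, was at 4.16, 3.95 and 3.68 CPM in KI, against 5.38, 4.97 and 3.58 CPM in WT. Bhlha15, a transcription factor of serous acinar cells, was at 1.51, 1.57 and 1.52 CPM in KI, against 2.73, 1.51 and 1.36 CPM in WT. Neither ranked the libraries as Bpifa2 did. Xbp1 did so within each group, at 170, 182 and 186 CPM in KI, against 170, 149 and 148 CPM in WT. Aqp5 and Bhlha15, and this comparison for Xbp1, were singled out after their values were seen. For gland ducts and myoepithelium, 15 genes were tested and the median was 0.12; the most abundant were Epcam, Sox10 and Krt7, and Krt7 was at 9.77 ± 0.932 CPM in KI and 9.72 ± 0.113 CPM in WT (SD, n = 3 each).

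The salivary secreted list had 31 genes in the table and 11 tested, with a median log2 fold change of -0.14, and none passed. Its most abundant genes were Ltf (lactoferrin, also a neutrophil granule protein), at 1250, 1310 and 1360 CPM in KI, against 1620, 1210 and 1480 CPM in WT, Dnase1, a secreted nuclease, at 117 ± 16.2 CPM in KI and 149 ± 7.4 CPM in WT (SD, n = 3 each), and Dmbt1. Dmbt1, the salivary agglutinin, had 12, 1663 and 219 counts in KI, against 2585, 35 and 127 in WT. Bpifb1, a BPI-fold protein of airway and salivary secretion, followed it closely, with 17, 2746 and 317 counts in KI, against 3890, 82 and 178 in WT. Both genes were high in WT replicate 1 and KI replicate 2 and lowest in KI replicate 1, and their groups overlapped. The related Bpifa1, an abundant airway and middle ear protein, was at 902, 1430 and 926 CPM in KI, against 1190, 985 and 791 CPM in WT. Among the airway-type genes, of which 10 were tested with a median of 0.12, it was the most abundant, ahead of Cyp2f2 and Bpifb1. Among the paralogs of the 10 genes, 21 were tested with a median of -0.02 and none passed; the most abundant were Bpifa1 and the carbonic anhydrases Car3 and Car2. Car3, an enzyme of muscle and fat, had 20117, 15458 and 27556 counts in KI, against 11396, 16883 and 21045 in WT.

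Muc5b and Muc19, the gel-forming mucins of mucous glands, sided with Bpifb2, and both were singled out after their values were seen. Muc5b had 153, 170 and 84 counts in KI, against 146, 121 and 3508 in WT. Muc19 had 5, 10 and 6 counts in KI, against 5, 2 and 182 in WT. As for Bpifb2, WT replicate 3 was high and the other libraries were low. Muc5b had a log2 fold change of -2.74 (SE 0.979), which did not pass (edgeR adjusted p = 0.966).

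The genes nearest to Mucl2 in pattern, chosen after its values were seen, were Scgb1b27, Scgb2b27, Klk1b26, Crisp3, Scgb2b26 and Klk1b9. Likeness was measured as the root mean square difference between centred log2(CPM + 0.5) values over the 6 libraries, and these 6 lay between 0.88 and 1.5 from Mucl2. Scgb1b27 and Scgb2b27 encode subunits of salivary androgen-binding protein, Klk1b26 and Klk1b9 are glandular kallikreins, and Crisp3 is a cysteine-rich secretory protein of mouse salivary gland. Scgb1b27 had 214, 9 and 1 counts in KI and none in WT, and Klk1b26 had 125, 5 and 6 in KI, against 10, 3 and 7 in WT. Kallikrein and secretoglobin genes have close copies, and reads may be split between them, which leaves each single value uncertain.

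Obp2b had companions among the odorant-binding proteins and related lipocalins, singled out after their values were seen except for Obp2a and Lcn3. Obp2a, the nearest relative of Obp2b, had 3, 73 and 100 counts in KI, against 2, 0 and 15 in WT, and did not pass (log2 fold change 3.69, SE 1.122, edgeR adjusted p = 0.966). Obp1a had 0, 22 and 16 counts in KI, against 0, 2 and 11 in WT, and Lcn3, a nasal lipocalin, had 0, 26 and 20, against 1, 0 and 3. Mup5, a major urinary protein gene, had 0, 18 and 2 counts in KI, against 0, 0 and 4 in WT. All were highest in KI replicate 2 or 3, and WT replicate 3 was the highest WT library for each. The lacrimal and sebaceous list as a whole, led by Scd1, Soat1 and Plin2, had 8 genes tested and a median of 0.14, and none passed.

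**Figure D3:**
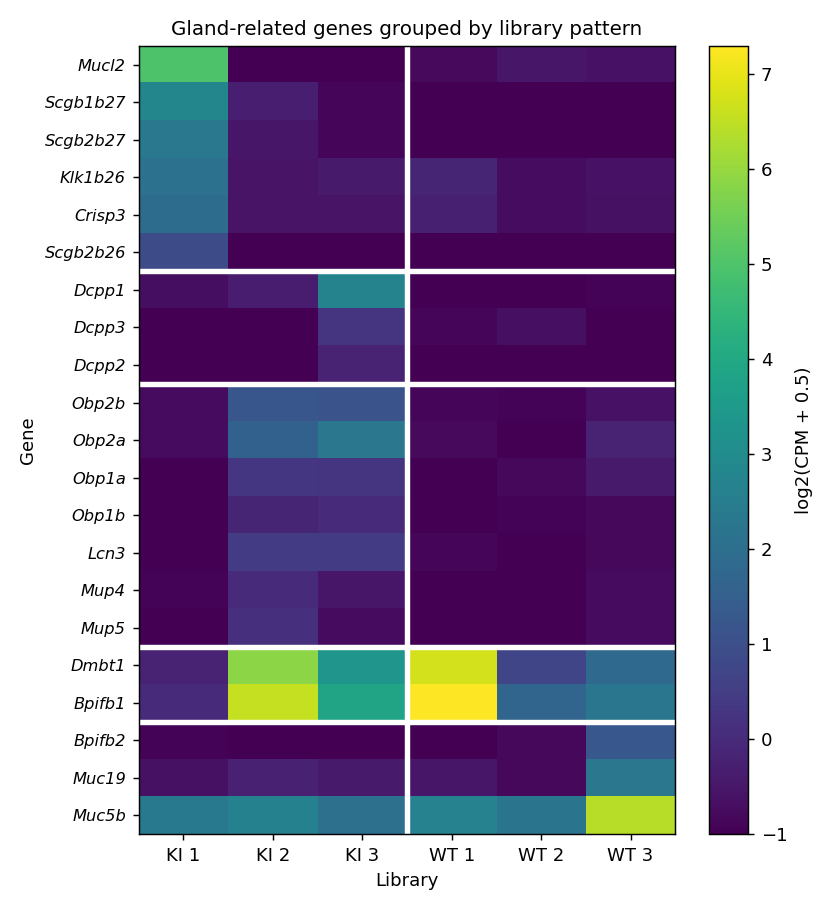
Level of 21 gland-related genes in each library, as log2(CPM + 0.5) on the colour scale, with genes in rows grouped by library pattern and KI libraries left of WT libraries. Mucl2, secretoglobins and kallikrein are highest in KI replicate 1, the Dcpp genes in KI replicate 3, and odorant-binding proteins in KI replicate 2 or 3. Dmbt1 and Bpifb1 are highest in WT replicate 1 and KI replicate 2, and Bpifb2 and the mucins in WT replicate 3. All genes share the colour scale, so sparse genes stay near its low end even in their highest library.

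Set against the median profile of the 10 genes, which was -0.26, 0.71 and 1.75 in KI and -0.9, -0.78 and -0.78 in WT on the centred log2(CPM + 0.5) scale, Cst10 and Amy1 were nearest among the 10 and Mucl2 farthest (differences of 0.2, 0.2 and 2.51). The 12 nearest other protein-coding genes were Chia1, Mrap, Lcn3, Acan, Ttr, Obp2a, Nnmt, Serpina1d, Wfdc12, Car5b, Snorc and Adipoq. Chia1, an acidic chitinase of mouse stomach and salivary gland, was closest at 0.36, with 56, 136 and 305 counts in KI, against 15, 22 and 31 in WT. Adipoq is the adipokine gene of fat cells, and Acan and Snorc are cartilage genes. Wfdc12, a secreted protease inhibitor, had 29, 28 and 38 counts in KI, against 7, 12 and 17 in WT (log2 fold change 1.61, SE 0.344, edgeR adjusted p = 0.741). When genes of any biotype were allowed, 8 of the 12 nearest were not protein-coding, led by the Y RNA Rny3, with 2383, 4085 and 5414 counts in KI, against 1061, 2282 and 2830 in WT, so levels of some small RNAs moved with the same libraries. Their part in the values of the gland genes was not tested.

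Markers of other tissues also varied between libraries. All 12 adipocyte genes were detected, and their summed level was 675, 345 and 1740 CPM in KI, against 185, 352 and 338 CPM in WT, highest in KI replicate 3 as for 7 of the gland genes. All 12 had positive log2 fold changes, with a median of 1.57, and none passed after adjustment, though all 12 had an unadjusted p under 0.05; the most abundant were Fabp4, at 194, 71.9 and 408 CPM in KI, against 43.9, 91.1 and 97.6 CPM in WT, and Cfd. All 14 cartilage genes were detected, with 12 positive, a median of 0.49, none past the test after adjustment and 8 with an unadjusted p under 0.05; Col11a2 and Col2a1 were the most abundant. For 4 of the 14, Col9a3, Col10a1, Matn3 and Snorc, every KI library lay above every WT library. The same held for 4 of the 12 adipocyte genes, Plin1, Cidec, Pparg and Ucp1, and for 4.7% of all genes tested. Col10a1 and Matn3, a cartilage matrix protein gene, were singled out after their values were seen. Col10a1 had a log2 fold change of 3.71 (SE 0.623), which did not pass (edgeR adjusted p = 0.196). Matn3 was at 1.12, 8.18 and 4.98 CPM in KI, against 0.482, 0.202 and 0.334 CPM in WT (log2 fold change 3.81, SE 0.689, edgeR adjusted p = 0.282). Both were highest in KI replicate 2, whereas 7 of the gland genes were highest in KI replicate 3. All 12 skeletal muscle genes were detected and 11 tested, none past the test, with summed levels of 5740, 3710 and 3360 CPM in KI, against 4670, 6980 and 4380 CPM in WT, led by Myh4 and Acta1. The part of any of these tissues in the gland gene values was not tested.

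**Figure D4:**
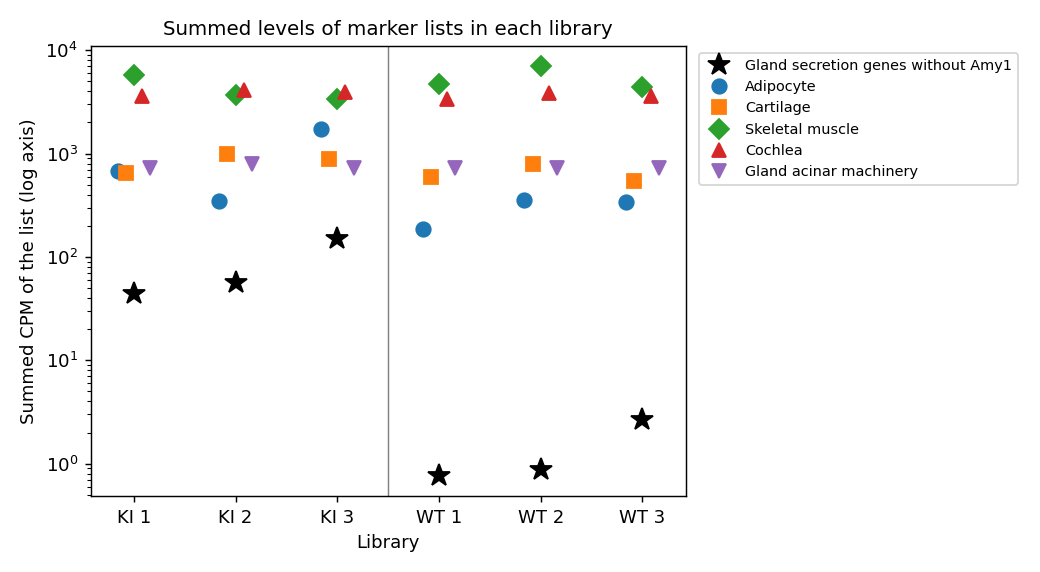
Summed CPM of marker lists in each library on a log axis, with KI libraries left of the line and WT libraries right of it; stars show the gland genes without Amy1. The gland genes lie at 43.5 to 148 CPM in KI and at 0.763 to 2.67 CPM in WT, while the cochlear list stays between 3380 and 4120 CPM in all 6 libraries.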

How the data were processed

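Cochlear RNA, depleted of ribosomal RNA, was sequenced from both ends (93 bases each), per the labels' protocols. STAR 2.5.2 mapped the reads to GRCm38 (GENCODE M11), per the submitters' processing notes and the series' design text. The authors deposited raw counts per gene and a DESeq2 table of log2 fold changes, whose signs for the 10 genes match KI over WT in the counts; its values are printed only where that table is named, and all other fold changes and ratios were computed from the counts. Neither the counting program nor its strand setting is named in the sources used here. Of 48733 rows, 24 were spike-in or transgene sequences (0.0015% to 0.0045% of counts), left out of totals and tests. Symbols, coordinates and exon lengths came from GENCODE M21 on the same build, and promoters from RefSeq; 48349 identifiers matched.

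Counts were tested with edgeR 4.0.16 (R 4.3.3): filterByExpr, TMM, two-sided quasi-likelihood F test with group as the only term, Benjamini-Hochberg adjustment over 20733 genes, threshold 0.05. Standard errors were derived from the fold change and F. CPM used TMM-scaled totals, and group ratios used counts summed over 3 libraries. DESeq2 1.42.0 was an alternative. On simulated counts (20581 genes tested) 46 of 50 genes set 2-fold higher and 50 of 50 set 4-fold higher were called, with 7 false calls; 41 of 50 lowered to 0.5 and 50 of 50 lowered to 0.25 were recovered. The changed genes were drawn only from genes with an expected mean count of at least 50, and all genes were simulated with the same dispersion. Recovery was therefore not tested for sparse genes or for genes that varied widely within a group. In the measured counts 7 of 20733 genes were called. Col10a1 and Obp2a, at log2 fold changes of 3.71 and 3.69, were not among them. In chi-square tests of 15 library pairs the statistic per degree of freedom was 20.5 to 50.8, so no library repeated another. The members and lists were chosen with earlier results of these data known. Named were the 10 genes, the 3 most abundant genes per gland list, the 2 most abundant per other tissue list, listed genes past the threshold, near-identical copies and the 12 nearest genes by pattern; other genes, among them Dct, Xist and the pancreas genes at 0, were named after their values were seen. Protein identity was computed from annotated coding sequences. Replicates are separate mice per the series' design; replicate numbers follow accession order. Alternatives were other scalings, filters and pseudocounts, DESeq2, and leaving out each library.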

Additional observations from a re-analysis of the deposited data

How the results depend on the processing

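The count of 7 gland genes whose groups did not overlap was 7 with unscaled totals or RLE normalization, and between 7 and 9 when a library was left out. Leaving out a library can only keep or raise this count. The share over all genes, 4.7% with KI wholly above WT, is given for all 6 libraries only. Over all genes, 7 were called by edgeR, 76 with no filter on low counts, 25 by DESeq2, and between 3 and 21 when a library was left out. Of the other gland-related genes, 0 were called by edgeR, also when any library was left out, and 0 by DESeq2; at an unadjusted p under 0.05 there were 6 by edgeR, between 5 and 15 when a library was left out, and 3 by DESeq2; with no filter 2 were called, Obp2a and Scgb2b27. Of the 12 genes nearest in pattern, 4 stayed with a pseudocount of 0.1 CPM, 4 with 2 CPM, and between 3 and 8 when a library was left out, so that list depends on the settings. Of 80 recomputed group ratios of the 10 genes, 66 moved by less than 1 SD and 14 by more, and 1 changed sign (Mucl2 without KI replicate 1). The causes were not tested. Low counts in 1 group limit the ratios of all members but Bpifa2 and Amy1. No paired analysis was possible because the labels pair no mice and number no replicates.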
